A study of Homo sapiens with 6 samples.

Results

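The genes described here are markers of fetal liver, of liver progenitor cells and of liver tumours: CD44, PROM1, LIN28B, IGF2BP1, IGF2BP2, IGF2BP3, HMGA1, HMGA2, SALL4 and GPC3. They were chosen by name, 10 in all, and 8 of them had a row among the 16659 genes of the table; GPC3 and IGF2BP1 were not analysed here. RNA came from HepaRG, a human liver cancer cell line that the labels also call a hepatic stem cell line. The 3 control libraries were of wild-type HepaRG cells and the 3 others of HepaRG cells with a functional knockout of PXR, the drug-sensing nuclear receptor encoded by NR1I2, and neither group had received a drug. The sources used here do not give how the knockout was made, how many clones it comprises or how long the cells were cultured.

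In the developing liver these genes work in linked circuits. LIN28B is an RNA-binding protein that blocks the maturation of let-7 microRNAs, and let-7 in turn represses LIN28B itself, HMGA2 and the IGF2BP genes, so that LIN28B and these genes are high in fetal tissue, low in adult liver, and can return in liver tumours. The IGF2BP proteins bind and stabilise messenger RNAs, many of them marked by N6-methyladenosine (m6A), and HMGA1 and HMGA2 are small chromatin proteins that bend AT-rich DNA. SALL4 is a zinc finger repressor of embryonic and fetal cells, CD44 is the cell surface receptor for hyaluronan, and PROM1 encodes the membrane protein CD133; the last of these are widely used as markers of progenitor and tumour cells.

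The let-7 microRNAs of RefSeq (GRCh38.p14) are shown first because several of the genes are known as their targets. A seed, bases 2 to 8 of the microRNA, pairs with the target. The seed of let-7a is in capitals below and is shared by 11 mature human microRNAs in that table, of which let-7d and miR-98 are shown with it.
hsa-let-7a-5p: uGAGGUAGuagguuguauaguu
hsa-let-7d-5p: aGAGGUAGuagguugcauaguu
hsa-miR-98-5p: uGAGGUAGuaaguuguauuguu

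The complement of that seed, CTACCTC, was searched on the sense strand of the 3′ untranslated region (3′ UTR) of 1 principal transcript per gene of GENCODE 29. LIN28B and HMGA2 each held 4 such matches, and IGF2BP2, IGF2BP3, HMGA1 and SALL4 held 1 each. Matches of LIN28B, HMGA2, IGF2BP2 and IGF2BP3 are printed with the matched bases in capitals, 8 where an A follows the seed match and 7 otherwise. Coordinates are those of the capitals in GRCh38, and the sequence reads along the transcript.
LIN28B, match 1, chr6:105078827-105078834, plus strand: cccggttgcaaagtCTACCTCAtg
LIN28B, match 2, chr6:105081254-105081260, plus strand: actgatgatagtaaCTACCTCtg
LIN28B, match 3, chr6:105081436-105081443, plus strand: tttacagcaaaaggCTACCTCAta
LIN28B, match 4, chr6:105082875-105082881, plus strand: aatgatggtgttgaCTACCTCtt
HMGA2, match 1, chr12:65963313-65963320, plus strand: ccaacgttcgatttCTACCTCAgc
HMGA2, match 2, chr12:65964548-65964554, plus strand: cccactactcaataCTACCTCtg
HMGA2, match 3, chr12:65964960-65964966, plus strand: tgacttgcaaagacCTACCTCca
HMGA2, match 4, chr12:65965813-65965819, plus strand: atcaaaacacactaCTACCTCtt
IGF2BP2, match 1, chr3:185644220-185644227, minus strand: acacacagaagaagCTACCTCAgg
IGF2BP3, match 1, chr7:23311795-23311802, minus strand: gcatttttactcaaCTACCTCAgg

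A match is a stretch of letters and not a measured site. Of 19107 genes with such a 3′ UTR, 8.59% held at least 1 match, and of the 13286 that were also tested for expression, 8 held 4 or more. The letters were not found in the 3′ UTR of the principal transcript of CD44 (3069 bases) or of PROM1 (1167 bases). The mature let-7 RNAs themselves were not measured in the values used here.

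The unit of a level is scaled CPM, the authors' read value after division by a scaled library size, given with the SD over 3 libraries. Changes are knockout minus wild type on the scale of log2(scaled CPM + 0.5), with a standard error (SE), and were tested with limma over all genes with Benjamini-Hochberg adjustment. The estimated depth was 11359209 to 20945994 reads in wild type and 28154914 to 33393110 reads in the knockout, so depth and group cannot be told apart. The targeted gene NR1I2 stood at 8.24, 7.04 and 7.60 CPM in wild type and at 13.1, 13.4 and 14.3 CPM in the knockout. A value summed over the gene does not check a functional knockout. Of 8 hepatocyte markers, 7 had a row, all 7 rose, and their summed level was 1405 to 1474 CPM in wild type and 39266 to 40287 CPM in the knockout. Markers of other cell types moved both ways within each list. Of 6 cholangiocyte markers, 3 had a row (118 to 121 CPM summed in wild type, 331 to 354 CPM in the knockout), with KRT19 and SOX9 higher and KRT7 lower. Of 8 stellate and mesenchymal markers, 6 had a row (46.0 to 47.3 and 75.4 to 77.8 CPM), with ACTA2, COL1A1 and COL3A1 higher and DES, PDGFRB and LRAT lower. Of 6 endothelial markers, 2 had a row (54.8 to 55.1 and 215 to 222 CPM), with KDR higher and PECAM1 lower. Of 7 leukocyte markers, 3 had a row (13.6 to 16.8 and 22.7 to 24.1 CPM), with CD68 and LYZ higher and CD14 lower. No marker with a row was at 0 in all libraries. The part of these shifts in the results below was not tested, and in bulk RNA more cells of a type and more RNA per cell cannot be told apart. The labels do not say whether each library had a culture of its own; p-values then reflect no more than the spread among these samples, possibly technical.

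The comparison shows how the level of each fetal and tumour-associated gene differs between untreated knockout and wild-type cells, and the genes did not move as one. CD44, LIN28B and IGF2BP2 rose, HMGA1 fell, and IGF2BP3, HMGA2 and PROM1 did not pass the test. SALL4 was too low to be tested. Of the 7 genes tested, 3 were higher and 1 was lower, where 40.3% of the 16219 genes tested were higher, 39.6% lower and 79.9% called in either direction. Groups did not overlap at 4 of the 7, against 80.8% of all genes tested. The median log2 change of the 7 was -0.022, beside 0.014 for all genes, and the share of them called is not above that background.

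**Figure D1:**
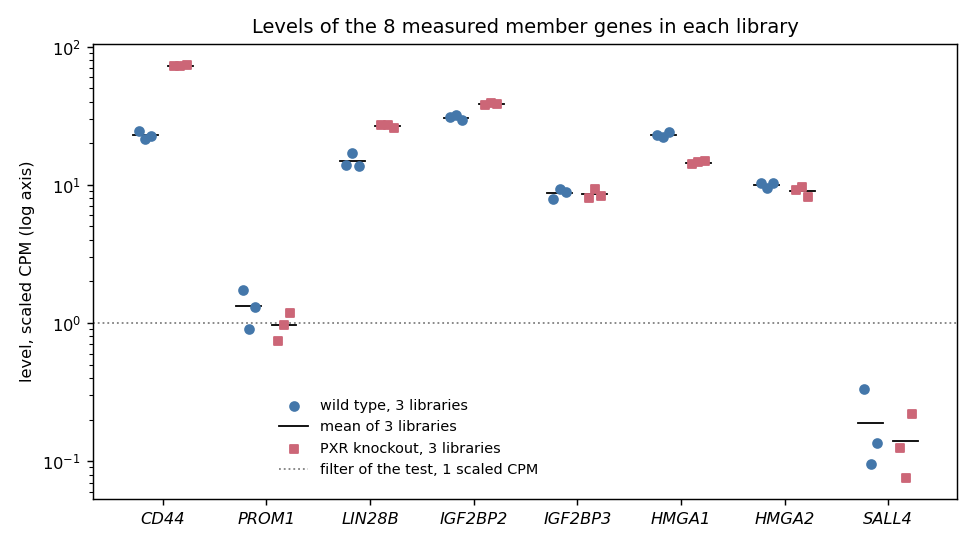
Level in scaled CPM (log axis) of the 8 genes with a row, in each of 3 wild-type (circles) and 3 PXR knockout libraries (squares), with group means as bars and the test's filter of 1 CPM as a dotted line. The groups stand apart for CD44, LIN28B, IGF2BP2 and HMGA1 and overlap for IGF2BP3, HMGA2, PROM1 and SALL4.

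Of the surface markers with a row, CD44 and PROM1, the first rose. CD44 (ENSG00000026508.18, chromosome 11, 35138870 to 35232402 in GRCh38, plus strand) stood at 24.4, 21.3 and 22.7 CPM in wild type, replicates 1 to 3, and at 71.7, 72.2 and 73.9 CPM in the knockout. Every knockout library was above every wild-type library, and the knockout libraries lay close together. The means of 22.8 ± 1.58 and 72.6 ± 1.17 (SD, n = 3 each) were 3.19-fold apart. The log2 change was 1.65 ± 0.050 (SE), with a limma adjusted p of 6.6e-13, and 93.5% of all tested genes had an equal or lower change. Between the alternatives of the fit, the log2 change stayed between 1.52 and 1.70. CD44 is spliced into a standard form and longer variant forms, and a value summed over the gene does not separate them.

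PROM1 (ENSG00000007062.11, chromosome 4, 15963076 to 16084378, minus strand) was near the lower end of what was measured. Its levels were 1.73, 0.91 and 1.30 CPM in wild type and 0.74, 0.96 and 1.18 CPM in the knockout, and the groups overlapped. These values rest on 19 to 29 reads in wild type and 24 to 38 reads in the knockout. The log2 change was -0.30 ± 0.18, with a 95% interval from -0.70 to 0.10 (limma adjusted p = 0.152). It passed with quantile normalization (-0.50, adjusted p = 0.0307) and without wild-type replicate 2 (-0.47, adjusted p = 0.0311), so no direction was settled at this depth. Only 1.11% of tested genes had an equal or lower level per kilobase of exon.

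Among the regulators of let-7, LIN28B (ENSG00000187772.8, chromosome 6, 104936616 to 105083332, plus strand) rose. Its levels were 13.8, 16.9 and 13.8 CPM in wild type and 27.2, 27.1 and 25.8 CPM in the knockout. The highest wild-type library was well below the lowest knockout library. Means were 14.8 ± 1.79 and 26.7 ± 0.80 (SD, n = 3 each), a 1.80-fold difference, and rest on 827 and 2443 reads summed over the group. The log2 change was 0.83 ± 0.076 (limma adjusted p = 1.4e-07), and leaving out single libraries moved it between 0.78 and 0.93. LIN28A, its close relative, was not analysed here.

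Of the IGF2BP family of RNA-binding proteins, IGF2BP2 (ENSG00000073792.15, chromosome 3, 185643739 to 185825056, minus strand) rose slightly. It is the member that adult tissues also express. Levels were 30.9, 31.8 and 29.2 CPM in wild type and 37.8, 38.7 and 38.2 CPM in the knockout. The groups did not overlap, but the difference was 1.25-fold. The log2 change was 0.32 ± 0.046 (limma adjusted p = 2.0e-05). Scaling every column to the same sum removes the factor that the authors had applied and moves the median log2 change of all genes to -0.12; with these equal sums the change of IGF2BP2 was 0.18 (adjusted p = 0.00232).

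IGF2BP3 (ENSG00000136231.14, chromosome 7, 23310209 to 23470467, minus strand), the form best known from fetal tissue and tumours, stood at 7.85, 9.39 and 8.82 CPM in wild type and at 8.05, 9.26 and 8.32 CPM in the knockout. The groups overlapped almost wholly. The log2 change was -0.022 ± 0.094 (limma adjusted p = 0.837), and its 95% interval ran from -0.22 to 0.18. The gene overlaps the end of MALSU1 on the opposite strand, which stood at 27.1 to 29.5 CPM in wild type and at 33.3 to 35.3 CPM in the knockout. The sources do not state whether counting used the strand, so reads of the shared stretch cannot be assigned.

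Of the AT-hook chromatin proteins, HMGA1 (ENSG00000137309.19, chromosome 6, 34236873 to 34246231, plus strand) fell. Its levels were 22.8, 22.1 and 24.02 CPM in wild type and 14.02, 14.6 and 14.8 CPM in the knockout. No knockout library reached the lowest wild-type library. Means were 22.9 ± 0.99 and 14.5 ± 0.41 CPM (SD, n = 3 each), so the knockout was 1.59-fold lower. The log2 change was -0.65 ± 0.061 (limma adjusted p = 1.9e-07) and lay between -0.78 and -0.61 under the alternatives of the fit. GENCODE 29 lists 7 processed pseudogenes named after HMGA1, which were not analysed here, and whether its level holds reads of these copies was not tested. Its estimated reads were whole numbers in all 6 libraries.

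HMGA2 (ENSG00000149948.13, chromosome 12, 65824131 to 65966295, plus strand), the textbook let-7 target with 4 matches printed above, stood at 10.3, 9.50 and 10.3 CPM in wild type and at 9.09, 9.63 and 8.09 CPM in the knockout. The groups overlapped through 1 library of each. The log2 change of -0.16 ± 0.088 did not pass (limma adjusted p = 0.109; 95% interval -0.35 to 0.030). It passed as a fall with equal sums (-0.29, adjusted p = 0.00757) and with quantile normalization (-0.22, adjusted p = 0.0315), so whether HMGA2 is called rests on the scaling between libraries.

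SALL4 (ENSG00000101115.13, chromosome 20, 51782331 to 51802520, minus strand) did not reach 1 CPM in any library. Its levels were 0.33, 0.096 and 0.13 CPM in wild type and 0.12, 0.075 and 0.22 CPM in the knockout. About 9.04 reads were behind the wild-type values and 13.1 behind the knockout values in all. The gene did not pass the filter on low values, and no difference was detectable at this depth.

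**Figure D2:**
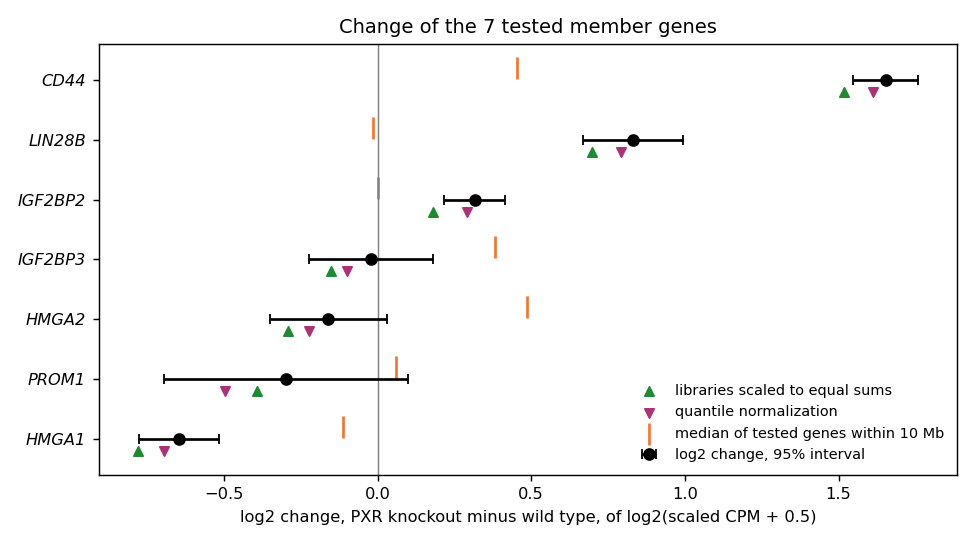
Log2 change (knockout minus wild type) of the 7 tested genes with its 95% interval (black), the change after scaling libraries to equal sums (upward triangles) or quantile normalization (downward triangles), and the median change of all tested genes within 10 Mb (orange bars). CD44 lies at 1.65, LIN28B at 0.83, IGF2BP2 at 0.32 and HMGA1 at -0.65, and the intervals of IGF2BP3, HMGA2 and PROM1 cross 0.

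Ratios of pairs of these genes within a library do not depend on a scaling factor per library, and 4 were compared. LIN28B over HMGA2 was 1.35, 1.78 and 1.33 in wild type and 2.996, 2.81 and 3.19 in the knockout. LIN28B over IGF2BP3 was 1.76, 1.80 and 1.56 in wild type and 3.38, 2.92 and 3.10 in the knockout. In both ratios every knockout library exceeded every wild-type library, so LIN28B was higher relative to each of these described let-7 targets. The log2 differences were 1.02 ± 0.15 and 0.88 ± 0.089 (SE). HMGA1 over HMGA2 went from 2.29 ± 0.061 to 1.63 ± 0.17 (SD, n = 3 each), a log2 difference of -0.50 ± 0.088, and IGF2BP2 over IGF2BP3 from 3.54 ± 0.34 to 4.49 ± 0.27, a log2 difference of 0.34 ± 0.094. The groups did not overlap in either ratio of paralogs. The exact permutation test gave p = 0.1 for each of the 4 ratios, two-sided, and 0.1 after adjustment over them, which is the smallest value that 3 libraries against 3 allow.

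Levels of different genes were compared per kilobase of annotated exon. In wild type, HMGA1 was highest at 9.86 ± 0.43 CPM per kilobase, before IGF2BP2 at 6.47 ± 0.28. LIN28B at 2.47 ± 0.30 and CD44 at 2.28 ± 0.16 came next and did not differ beyond their spread. IGF2BP3 at 1.02 ± 0.091 and HMGA2 at 0.65 ± 0.030 followed, then PROM1 at 0.18 ± 0.055 and SALL4 at 0.033 ± 0.022. In the knockout the order was IGF2BP2 at 8.07 ± 0.097, CD44 at 7.26 ± 0.12, HMGA1 at 6.22 ± 0.17 and LIN28B at 4.45 ± 0.13 CPM per kilobase. HMGA1 thus went from the highest place to the third. With the length of 1 principal transcript per gene in place of all exons, a choice made after seeing the data, CD44 stood above LIN28B in wild type (3.97 and 2.70) and above IGF2BP2 in the knockout (12.7 and 10.4). HMGA2 and IGF2BP3 then lay together, at 2.24 and 2.04 in wild type.

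**Figure D3:**
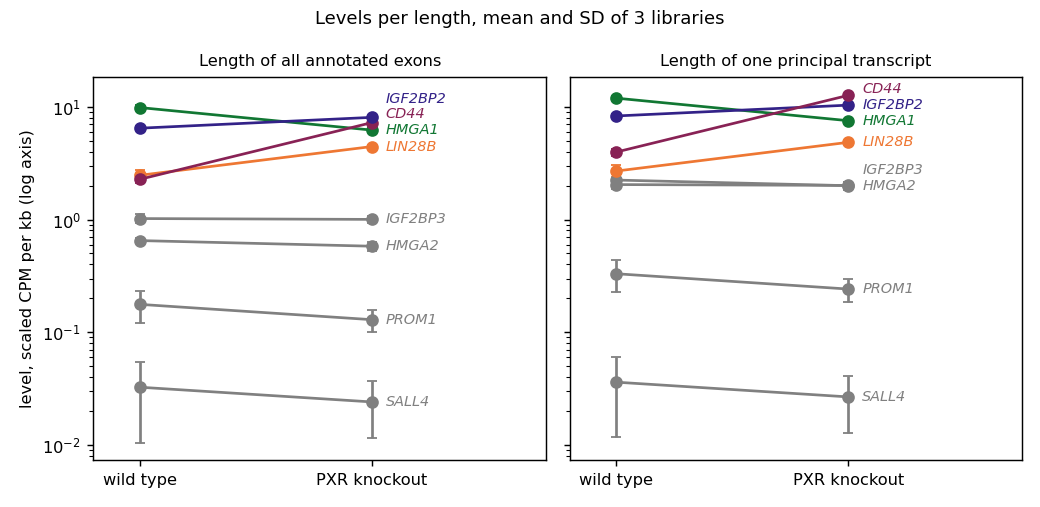
Level in scaled CPM per kilobase (log axis) in wild type and PXR knockout, as mean and SD of 3 libraries, with the length taken as all annotated exons (left) or as 1 principal transcript (right). HMGA1 is highest in wild type in both panels, and the highest gene in the knockout is IGF2BP2 on the left and CD44 on the right.

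Some of these genes lie where many genes moved together. Around CD44, 60 tested genes within 10 Mb had a median log2 change of 0.45, and 61.7% of them were higher, against 40.3% of all tested genes. The change of CD44 less that median was 1.20. Around HMGA2, 140 genes had a median of 0.49 and 63.6% were higher, and over chromosome 12 the median was 0.33. Around IGF2BP3, 78 genes had a median of 0.38 and 65.4% were higher, and over chromosome 7 the median was 0.43. HMGA2 and IGF2BP3 thus stood below the medians of their surroundings, by 0.65 and 0.40, as the values -0.65 and -0.40 after subtraction show. Still, 18.6% of the genes around HMGA2 and 25.6% of those around IGF2BP3 had a lower change. Around LIN28B, IGF2BP2, HMGA1 and PROM1 the medians were -0.016, 0.0028, -0.11 and 0.061. These medians come from the same libraries and give a description, not a test.

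Genes of let-7 processing and decay, a list of both promoters and blockers of let-7, moved both ways. Of 17 tested genes, LIN28B included, 5 rose and 12 fell, with a median log2 change of -0.23. Counts of this and the following lists stand beside all tested genes, of which 40.3% rose and 39.6% fell. Some falls were small, as those of HNRNPA1 (-0.12), TUT4 (-0.18) and AGO2 (-0.18). XPO5, which exports microRNA precursors from the nucleus, fell from 104 ± 2.31 to 50.1 ± 0.60 CPM. DGCR8, the RNA-binding partner of DROSHA, fell from 44.0 ± 0.98 to 22.5 ± 0.50 CPM. Its chromosome, 22, had a median log2 change of -0.77 over 377 tested genes. TARBP2, a partner of DICER1, rose from 26.7 ± 1.11 to 37.8 ± 1.04 CPM, and the Argonaute gene AGO4 from 18.3 ± 0.75 to 24.3 ± 0.51 CPM. The log2 change of TARBP2 was 0.50, and the median of its chromosome, 12, was 0.33 over 844 tested genes.

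Of 6 listed host genes of let-7 precursors, 4 were tested, and these changed little. MIRLET7BHG, which hosts let-7b on chromosome 22, stood at 15.4 ± 0.87 and 13.4 ± 0.47 CPM (log2 change -0.19, limma adjusted p = 0.0205). That call was lost without wild-type replicate 2 (adjusted p = 0.0873), without knockout replicate 1 (0.0556) and without knockout replicate 2 (0.0694). MIR100HG stood at 11.9 ± 1.35 and 11.8 ± 0.92 CPM and did not pass (adjusted p = 0.957). MIR99AHG stood at 11.5 ± 0.19 and 10.3 ± 0.57 CPM (adjusted p = 0.0638) and passed as a fall with equal sums (-0.29, adjusted p = 0.00251), with quantile normalization (-0.22, adjusted p = 0.0157), without the mean-variance trend (adjusted p = 0.0207) and without knockout replicate 2 (adjusted p = 0.048). HUWE1, a ubiquitin ligase gene that hosts let-7f-2 and miR-98, fell from 342 ± 4.61 to 313 ± 5.70 CPM. A host transcript is not a measure of the mature microRNA.

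Other genes commonly described as let-7 targets went both ways in equal numbers. Of 27 tested, 12 rose and 12 fell, with a median of -0.012. CCND2, a G1 cyclin, rose from 0.60 ± 0.25 to 29.3 ± 1.94 CPM, and the death receptor gene FAS from 16.5 ± 2.78 to 117 ± 2.33 CPM. CCND2 passed the filter on low values only because of its knockout libraries. E2F2, a transcription factor of the cell cycle, fell from 21.7 ± 2.02 to 3.14 ± 0.60 CPM, and the phosphatase gene CDC25A from 16.7 ± 1.08 to 2.36 ± 0.33 CPM. Over the whole table, 1308 tested genes had at least 1 of the 7-base matches described above. Of these, 42.0% were higher and 38.4% lower, with a median log2 change of 0.032. Among 11978 genes with none, 42.1% were higher and 40.8% lower, with a median of 0.014. Genes with a match had longer 3′ UTRs, with a median of 2925 against 984 bases.

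Transcripts described as bound by IGF2BP proteins rose at 6 and fell at 3 of 10 tested (median 0.080). The rises of MYC, TGFBR2 and CTNNB1 were small, with log2 changes of 0.13, 0.086 and 0.074. Scaling to equal sums moved the median of all genes from 0.014 to -0.12. The values of MYC, TGFBR2 and CTNNB1 under that scaling were not examined. With equal sums, rises of similar or larger size did not pass, as those of HMGN3 (0.14, then -0.0016) and GPC6 (0.18, then 0.039). The number of rises in this list thus rests in part on the scaling. H19, the imprinted fetal RNA, rose from 4.36 ± 0.47 to 8.31 ± 0.25 CPM. ACTB rose from 2417 ± 37.6 to 3017 ± 69.4 CPM (log2 change 0.32), but with quantile normalization its change was -0.028 (adjusted p = 0.376). Its chromosome, 7, had a higher median log2 change, 0.43 over 816 tested genes. MKI67, the proliferation marker, fell from 114 ± 7.95 to 50.7 ± 2.98 CPM, and PPP1R9B, for a neuronal scaffold protein, from 59.1 ± 1.55 to 29.9 ± 2.61 CPM. IGF2 was not analysed here. Of 16 other m6A genes, 5 rose and 8 fell (median -0.10). METTL3, the catalytic subunit of the m6A writer, fell from 95.4 ± 2.43 to 40.6 ± 1.25 CPM, and VIRMA, a subunit of the same complex, from 104 ± 3.57 to 66.5 ± 1.77 CPM. WTAP, also a subunit, rose from 85.6 ± 2.91 to 107 ± 0.63 CPM, and the reader gene HNRNPA2B1 rose from 476 ± 39.1 to 595 ± 14.05 CPM. HNRNPA2B1 also lies on chromosome 7, and its log2 change of 0.32 was below the median there.

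Of 16 tested CD44 ligands, linkers, sheddases and splicing factors, 7 rose and 8 fell (median -0.053). SPP1, for the CD44 ligand osteopontin, fell from 382 ± 12.4 to 43.6 ± 1.46 CPM, and HMMR, a second hyaluronan receptor that is also a gene of mitosis, from 75.8 ± 3.21 to 22.9 ± 1.41 CPM. CEMIP, needed for hyaluronan breakdown, rose from 0.22 ± 0.10 to 9.61 ± 0.39 CPM and passed the filter only because of its knockout libraries. ESRP2, an epithelial splicing factor that favours CD44 variant exons, rose from 26.5 ± 1.01 to 55.5 ± 3.28 CPM. ESRP1 was not analysed here.

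Among 13 tested other progenitor and tumour cell markers, 7 rose and 5 fell (median 0.45). CACNA2D1, among the rises, passed the filter only because of its knockout libraries, and KRT7, among the falls, only because of wild type. ALDH1A1, a retinal dehydrogenase gene, rose from 926 ± 17.3 to 2828 ± 41.4 CPM, and the bile duct keratin gene KRT19 from 111 ± 2.89 to 334 ± 12.2 CPM. NCAM1 fell from 10.5 ± 1.02 to 2.90 ± 0.25 CPM. PROM2, the paralog of PROM1, fell from 4.81 ± 0.91 to 1.36 ± 0.34 CPM, a log2 change of -1.52 ± 0.16 (limma adjusted p = 8.9e-07). EPCAM was not analysed here. Of 12 other oncofetal genes, 8 rose and 2 fell (median 0.52). TSPAN8, among the rises, passed the filter only because of its knockout libraries. Alpha-fetoprotein (AFP), the classical fetal liver protein, rose from 1.80 ± 0.23 to 3.52 ± 0.10 CPM, a low level in both groups. IGFBP1 rose from 1.60 ± 0.17 to 20.3 ± 0.55 CPM and SPINK1, for a trypsin inhibitor raised in some liver tumours, from 58.3 ± 2.00 to 279.5 ± 10.5 CPM. PKM, a pyruvate kinase gene whose splice forms are not separated here, fell from 2160 ± 36.6 to 1591 ± 29.4 CPM. AKR1B10, a reductase gene raised in many liver cancers, fell from 568 ± 13.3 to 459.6 ± 8.17 CPM.

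Of the other glypicans, relatives of GPC3 that carry heparan sulfate at the cell surface, 2 rose, 1 fell and 2 did not pass. GPC1 fell from 428 ± 18.96 to 362 ± 17.8 CPM and GPC6 rose from 99.5 ± 2.77 to 112 ± 1.09 CPM, a call lost with equal sums (log2 change 0.039, adjusted p = 0.256). GPC4 and GPC5 did not pass (adjusted p = 0.176 and 0.385), and GPC4 passed as a fall with equal sums (-0.24) and without wild-type replicate 2 (-0.17). GPC2 rose from 0.69 ± 0.43 to 1.68 ± 0.24 CPM. It stood at 0.25, 1.10 and 0.72 CPM in wild type and passed the filter only because of its knockout libraries. Of 20 tested glypicans, syndecans and heparan sulfate enzymes, 10 rose and 6 fell (median 0.15). Of the syndecan genes, SDC3 fell from 111 ± 3.42 to 76.3 ± 2.37 CPM and SDC4 rose from 247 ± 5.28 to 430.1 ± 1.753 CPM, both named after their values were seen. SDC2 rose from 18.1 ± 2.89 to 77.9 ± 2.48 CPM and SDC1 from 180.2 ± 3.55 to 543 ± 18.9 CPM. The sulfatase gene SULF2, whose product trims heparan sulfate, rose from 134 ± 1.67 to 276 ± 6.70 CPM and SULF1 from 4.40 ± 0.51 to 6.72 ± 0.36 CPM. HS2ST1, a heparan sulfate sulfotransferase gene, fell from 86.5 ± 3.30 to 50.2 ± 1.67 CPM, and the heparanase gene HPSE from 6.67 ± 0.59 to 4.28 ± 0.20 CPM.

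SALL1, a relative of SALL4, was measured well where SALL4 was not, and rose from 6.53 ± 0.42 to 21.0 ± 0.55 CPM, a log2 change of 1.61 ± 0.075 (limma adjusted p = 8.2e-11). With the NuRD repressor complex that SALL proteins recruit, and CRBN, the ligase subunit through which thalidomide-like drugs degrade SALL4, 7 of 16 tested genes rose and 7 fell (median 0.11). CHD3 rose from 53.6 ± 4.25 to 100.4 ± 3.16 CPM, RBBP7 fell from 163 ± 7.90 to 115 ± 2.87 CPM, and GATAD2A fell from 69.0 ± 0.49 to 52.3 ± 2.97 CPM.

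HMGA1 fell, and of 9 other high mobility group genes tested, 6 fell and 2 rose (median -0.22), where 39.6% of all tested genes fell. HMGB2, which is high in dividing cells, fell from 103 ± 3.08 to 36.6 ± 0.73 CPM, and HMGN4 from 109 ± 2.86 to 60.7 ± 2.67 CPM. HMGB1 and HMGB3 fell by less, from 264 ± 4.62 to 197 ± 3.96 CPM and from 65.3 ± 1.35 to 59.3 ± 0.52 CPM. HMG20B rose from 39.8 ± 1.54 to 50.2 ± 1.80 CPM, and HMGN3 rose with a log2 change of 0.14, which with equal sums was -0.0016 (adjusted p = 0.972).

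**Figure D4:**
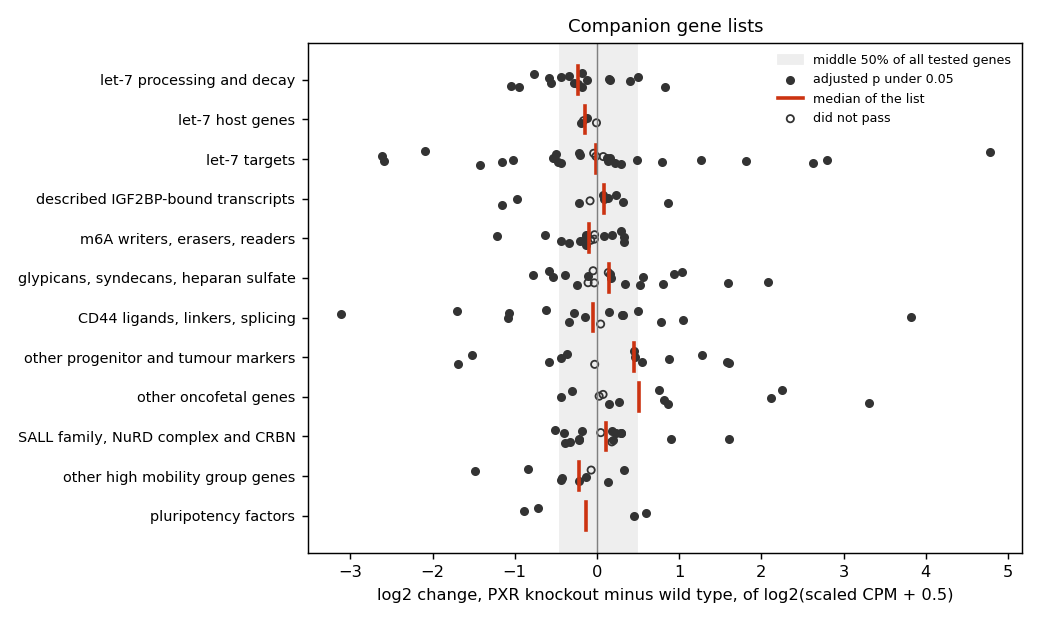
Log2 change (knockout minus wild type) of each tested gene in 12 lists related to the fetal and tumour-associated genes (filled points passed the test, open points did not), with the median of each list in red and the middle 50% of all tested genes in grey. The medians lie between -0.23 for let-7 processing and decay and 0.52 for other oncofetal genes.

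Over all these lists, 158 distinct genes were tested beside the 7, of which 66 rose and 72 fell, with a median of -0.036. That is 41.8% and 45.6% of them, beside 40.3% and 39.6% of all tested genes. With libraries scaled to equal sums the split became 49 higher and 84 lower, or 31% and 53.2%, beside 33% and 47.4% of all tested genes.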

How the data were processed

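Per the labels, total RNA of 6 HepaRG libraries was made into libraries with a stranded mRNA kit. Tools in the submitters' processing notes are Bowtie2, edgeR, limma, Trim Galore and FastQC, with build hg38. Versions, annotation and counting settings are not given in these sources, and sample titles begin with RSEM, which estimates counts and shares ambiguous reads. The authors deposited a normalized signal, named for log2 CPM but on a linear scale, with column sums from 936409 to 1042826. The smallest step between low values gave the worth of 1 read and so the estimated depths; all values were multiples of a hundredth of it (tolerance 0.05). Of values under 20 reads, 67.9% to 76.6% were whole reads (within 0.006), so no count test was run.

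Here 14 rows of second pseudoautosomal copies were dropped and 16608 of 16659 identifiers matched GENCODE 29 (GRCh38), which gave positions and lengths. Log2(scaled CPM + 0.5) was fitted with limma 3.58.1 (R 4.3.3; group, mean-variance trend, two-sided, threshold 0.05) for genes above 1 CPM in at least 3 of 6 libraries. GPC2, CEMIP, CCND2, TSPAN8 and CACNA2D1 passed this filter only because of their knockout libraries. KRT7, PDGFRB, PECAM1, DES and DPPA4 passed it only because of wild type. For these genes the filter favoured the direction of the call. The fit was tested on simulated data in which few genes changed, so that test does not speak to shifts as broad as those found here. Genes named are the members, at most 2 with the largest rise and 2 with the largest fall per list, and close relatives of the members. The members and lists were chosen with earlier results of these data known. Alternatives were other pseudocounts, filters and scalings, a replicate block, no trend, and each library left out.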

Additional observations from a re-analysis of the deposited data

How the results depend on the processing

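CD44, LIN28B, IGF2BP2 and HMGA1 kept their direction and their call under each of the 14 alternative fits. The number of these fetal and tumour-associated genes that fell was 1, and became 2 with libraries scaled to equal sums and 3 with quantile normalization; leaving out single libraries gave 1 to 2, the higher value without wild-type replicate 2, where PROM1 passed. Of the genes named by rule beside them, ACTB lost its rise with quantile normalization (log2 change -0.028, limma adjusted p = 0.376). HMGN3 lost its rise with equal sums (-0.0016, limma adjusted p = 0.972). GPC6 lost its call with equal sums, and MIRLET7BHG when certain single libraries were left out. GPC4 and MIR99AHG gained a call as falls under some alternatives. Replicate numbers are shared by the groups, but libraries of the same number did not deviate together (correlations of -0.020, -0.061 and 0.025 over tested genes). Not every library correlated best with its own number. Correlations over all tested genes cannot show whether libraries of the same number shared a culture or a preparation with a small effect. The fit with a replicate block called 12916 genes against 12960 without it, and again 3 of the genes higher and 1 lower. Depth limits PROM1 and SALL4, at 19 to 38 and 2.0 to 7.0 reads per library.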

Other observations

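IGF2BP3 and HMGA2 had no library with a whole number of estimated reads (within 0.006 of a read), whereas CD44, PROM1, LIN28B and HMGA1 had whole reads in all 6. IGF2BP3, for example, had 95.27 reads in wild-type replicate 1 and 261.33 in knockout replicate 1, and HMGA2 had 124.39 and 295.09. How these fractions arose was not tested.

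Of the pluripotency factors, 4 of the 10 listed were tested, and 2 rose and 2 fell. POU5F1 rose from 8.08 ± 0.41 to 11.2 ± 0.17 CPM and KLF4 from 3.89 ± 0.74 to 6.09 ± 0.51 CPM, while DNMT3B fell from 3.36 ± 0.82 to 1.56 ± 0.20 CPM and DPPA4 from 2.17 ± 0.06 to 1.13 ± 0.13 CPM. POU5F1 has near-identical pseudogene copies, and whether its level holds reads of these was not tested.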
